A study of Mus musculus with 19 samples.

Results

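Expression of 10 genes of the endoplasmic reticulum (ER) folding machinery was measured in the hippocampal CA1 region of 19 mice. The 10 genes were Hspa5, Hsp90b1, Calr, Pdia3, Pdia4, Pdia6, Sdf2l1, Manf, Creld2 and Dnajb11, a set given by name and not by a threshold on these libraries. All 10 were found among the 48709 genes of the count tables, and all 10 were among the 19286 genes that had enough reads to be tested. Every animal was a male wild-type C57B/6J mouse that had received oligonucleotides packed in lipid nanoparticles into the dorsal hippocampus. The young group (3 months of age, n = 6) and the old control group (16.5 months, n = 6) had received control oligonucleotides, and the old anti-miR-mix group (16.5 months, n = 7) had received inhibitors of the microRNAs miR-146a-5p and miR-148a-3p together with an inhibitor of miR-181a-5p. Titles of libraries from the young and the old control group also carry the name anti-miR-mix, and the grouping follows the descriptions. All groups therefore shared the injection and the carrier, and no group was left without it.

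Proteins that enter the secretory pathway are folded in the ER. There, Hspa5 (also called BiP) and Hsp90b1 (GRP94) hold unfolded chains, Calr and Pdia3 handle glycoproteins, and Pdia4 and Pdia6 make and exchange disulphide bonds. When unfolded protein builds up, the sensors Atf6, Ern1 (IRE1) and Eif2ak3 (PERK) start the unfolded protein response, in which the transcription factors ATF6 and spliced XBP1 raise transcription of the chaperones. Neurons, which make large amounts of membrane and secreted protein, use this machinery throughout life, and a loss of ER chaperones with age has often been discussed for brain tissue.

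Depth per library was between 26653511 and 38908947 reads assigned to genes. A value is a level in log2 CPM, that is, reads scaled to the depth of the library unless stated otherwise. A gene is described as called when its p value in edgeR's quasi-likelihood test, adjusted over all 19286 genes by the Benjamini-Hochberg method, was under 0.05. The counts come from whole tissue, in which fewer cells of a type and less RNA per cell cannot be told apart. CA1 pyramidal markers summed to between 710 and 973 CPM and dentate granule markers to between 31.2 and 91.6 CPM over all libraries. The deposited log2 table carries a whole number from 1 to 4 for each library, the source of which is not described. The number 3 was carried by 2 libraries of the young group and 3 of the old anti-miR-mix group but by 0 old control libraries. Results that rest on these 5 libraries are also given without them, a choice made after the data had been seen. Young replicate 4, with 38851370 reads and the number 3, had the highest level of all 19 libraries for 8 of the 10 genes. Old control replicates 5 and 6 were close to each other in their counts, and treating them as 1 library left 0 members called in all 3 comparisons.

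The promoters are shown first because 5 of the members share a known regulatory sequence there. The ER stress response element of the first type is CCAAT, then 9 bases of any kind, then CCACG. Its CCAAT part is known as the site of the factor NF-Y and its CCACG part as the site of ATF6 and XBP1. RefSeq promoters (build GRCm38.p6, 250 bases before to 50 bases after each gene start) were at hand for 9 of the 10 genes, Manf being the one without an entry. On either strand, the element was present in 5 of these 9 genes, compared with 0.137% of all 27025 genes with a promoter entry (0.119% of all 32851 promoters). The element is named for genes of the ER stress response, to which the members belong. The shares are therefore a description and no test of the members. The matches are given 5′ to 3′ on the strand that carries the element, with CCAAT and CCACG in capitals:
Hspa5, chr2:34772025-34772043: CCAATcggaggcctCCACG
Calr, chr8:84847075-84847093: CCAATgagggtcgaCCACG
Hsp90b1, chr10:86705638-86705656: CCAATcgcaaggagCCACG
Hsp90b1, chr10:86705533-86705551: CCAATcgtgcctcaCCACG
Pdia6, chr12:17266491-17266509: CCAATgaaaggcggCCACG
Creld2, chr15:88819520-88819538: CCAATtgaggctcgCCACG

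The matches lay between 65 bases (Hspa5) and 212 bases (Hsp90b1) before the gene start. They run along the gene's own strand in Hspa5, in the farther match of Hsp90b1 and in Pdia6, and along the opposite strand in Calr, in the nearer match of Hsp90b1 and in Creld2. The element of the second type (ATTGG, 1 base of any kind, CCACG) was found in Dnajb11 only among the 9, 7 bases after the gene start (chr16:22857852-22857862, ATTGGcCCACG), compared with 0.0365% of all promoters. The letters CCACG alone were in 8 of the 9 promoters and in 32.8% of all promoters. Counted by gene, the second element was held by 0.0444% and the letters CCACG by 35.5% of all genes with a promoter entry. No factor binding was measured in these samples, so a match describes the letters only.

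The levels of the 10 mRNAs spanned more than an order of magnitude. To compare genes with each other, reads were divided by the length of all annotated exons and by depth (RPKM). Calr, which encodes the glycoprotein chaperone and calcium store calreticulin, was the most abundant at 106 ± 5.71 RPKM (SD, n = 19). Hsp90b1 (58.2 ± 3.71) and Pdia3 (57.9 ± 3.36) followed and could not be ordered, since Hsp90b1 was above Pdia3 in 11 of 19 libraries. Hspa5 was next at 47.0 ± 5.43 RPKM and lay below Pdia3 in 18 libraries. The disulphide isomerases Pdia6 and Pdia4 had 21.2 ± 1.43 and 16.6 ± 1.67 RPKM, and the co-chaperone Dnajb11, which serves Hspa5, had 14.2 ± 0.7 RPKM. At the lower end, Creld2, a secreted ER protein with isomerase activity, had 8.49 ± 1.08 RPKM, the trophic factor and Hspa5 partner Manf had 7.98 ± 0.694 RPKM, and Sdf2l1, a partner of the Hspa5 complex, had 5.63 ± 1.06 RPKM. Creld2 was above Manf in 15 of 19 libraries, and each of the other neighbours kept its order in 19 of 19. The order depends on the annotated exon lengths, 3524 bases for Manf, 1366 for Creld2, 4229 for Hspa5 and 3139 for Pdia3. Before division by length, the mean in young mice was higher for Manf (29.2 CPM) than for Creld2 (13.0), and higher for Hspa5 (217) than for Pdia3 (184).

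**Figure D1:**
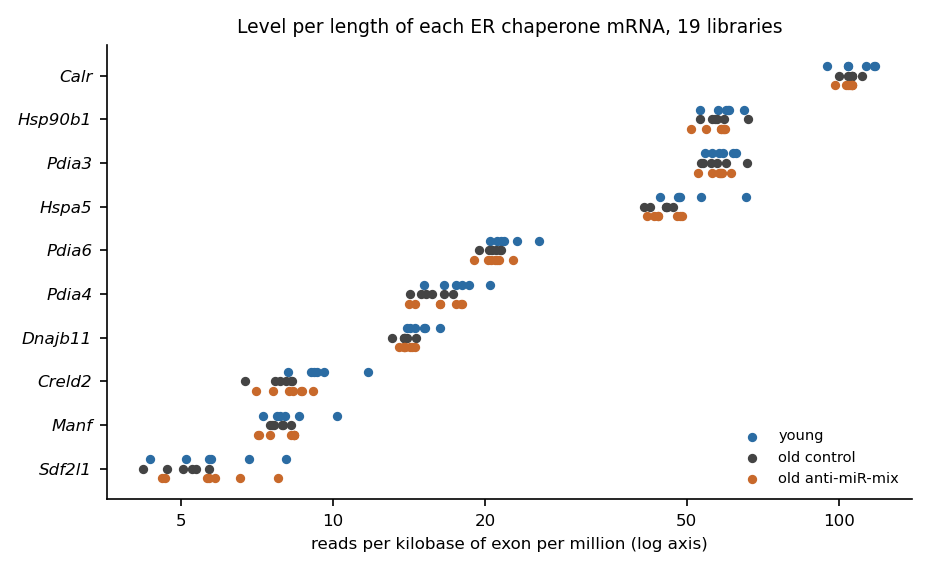
Level of each ER chaperone mRNA per length in RPKM (log axis), with 1 point for each of the 19 libraries, coloured by group. Calr lies near 106, Hsp90b1 and Pdia3 share a range near 58, and Sdf2l1 is lowest at 5.63 on average.

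The least abundant member was also the most variable. The coefficient of variation over the 19 libraries was 18.9% for Sdf2l1, 12.7% for Creld2 and 11.6% for Hspa5, and between 4.92% (Dnajb11) and 10.1% (Pdia4) for the others. Reads per library ranged from 124 for Sdf2l1 to 13029 for Calr, so counting error weighs most on Sdf2l1. Hspa5, Calr, Sdf2l1, Creld2 and Dnajb11 overlap no other annotated gene. Hsp90b1, Pdia3, Pdia4, Pdia6 and Manf overlap others on the same or the opposite strand (Manf overlaps Rbm15b and Dcaf1, for example), and the strand setting of the counting is not given in the sources used here, so a share of their reads could belong to the neighbour. The processed copy Calr-ps had at most 3 reads in a library.

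The comparison of old control with young mice asked whether the ER chaperones change with age. None of the 10 genes was called, although the fitted change was below 0 for all 10. The fitted change was below 0 for 47.8% of all tested genes, and 2.67% of all tested genes were called (514 genes). The log2 fold changes ranged from −0.28 for Creld2 to −0.03 for Pdia3 and Hsp90b1, with a median of −0.10, compared with 0.0064 over all tested genes. At an unadjusted p under 0.05, 5 of the 10 genes were lower in old control mice (Hspa5, Pdia4, Pdia6, Creld2 and Dnajb11), whereas 8.92% of all tested genes passed that threshold in that direction. The members varied together from mouse to mouse, as described below, so counts of members here and later are not of independent genes. In 0 of the 10 genes were all old control libraries on the same side of all young libraries, which was the case for 2.54% of all tested genes.

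Creld2 had the largest fitted difference. Its levels were 3.48, 3.67, 3.72, 4.00, 3.65 and 3.63 log2 CPM in young replicates 1 to 6, and 3.51, 3.20, 3.40, 3.47, 3.43 and 3.50 in old control replicates 1 to 6. Thus 5 of 6 young libraries lay above every old control library, and only young replicate 1 fell within the old control range. The fitted level was 17.7% lower in old control mice (log2 fold change −0.28 ± 0.08 SE, 95% interval −0.45 to −0.12, unadjusted p = 0.00197, edgeR adjusted p = 0.06). The gene was called without young replicate 1 (log2 fold change −0.32, edgeR adjusted p = 0.0408), without old anti-miR-mix replicate 6 (−0.28, adjusted p = 0.048) and with DESeq2 (−0.28, adjusted p = 0.0215). The edgeR adjusted p was 0.161 without young replicate 4, 0.281 without the libraries of number 3 and 0.154 with the number as a factor.

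Hspa5, the central chaperone of the ER, had 7.55, 7.66, 7.82, 8.12, 7.68 and 7.67 log2 CPM in the young and 7.44, 7.48, 7.63, 7.60, 7.59 and 7.59 in the old control libraries. The young libraries of number 3, replicates 3 and 4, were its highest 2 values, and 5 of 6 young libraries lay above all old control libraries. The fitted level was 13.2% lower in old control mice (log2 fold change −0.20 ± 0.07 SE, edgeR adjusted p = 0.124). Without young replicate 4 the log2 fold change was −0.12, and without the libraries of number 3 it was −0.09.

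Dnajb11, which presents clients to Hspa5, had a lower spread. Its levels ran from 5.50 to 5.72 with a median of 5.58 log2 CPM in young libraries and from 5.41 to 5.56 with a median of 5.49 in old control libraries. The fitted difference was −0.10 ± 0.04 (SE) on the log2 scale (edgeR adjusted p = 0.128). The isomerases Pdia4 and Pdia6 had log2 fold changes of −0.18 and −0.10, with edgeR adjusted p of 0.186 and 0.259, and in each gene 4 of 6 young libraries lay above all old control libraries. In Sdf2l1 the fitted difference was larger than in these 3 genes, at −0.24 ± 0.14 (SE). The young libraries alone spanned 2.29 to 3.17 log2 CPM, and the interval of Sdf2l1, −0.53 to 0.04, includes 0.

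In the members with the highest RPKM the groups were close to each other. Calr, Hsp90b1 and Pdia3 differed by −0.04, −0.03 and −0.03 on the log2 scale between old control and young mice, and Manf differed by −0.08 (95% interval −0.22 to 0.05). The lower ends of the 95% intervals of Calr, Hsp90b1 and Pdia3 corresponded to 0.913, 0.907 and 0.916 times the young level.

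**Figure D2:**
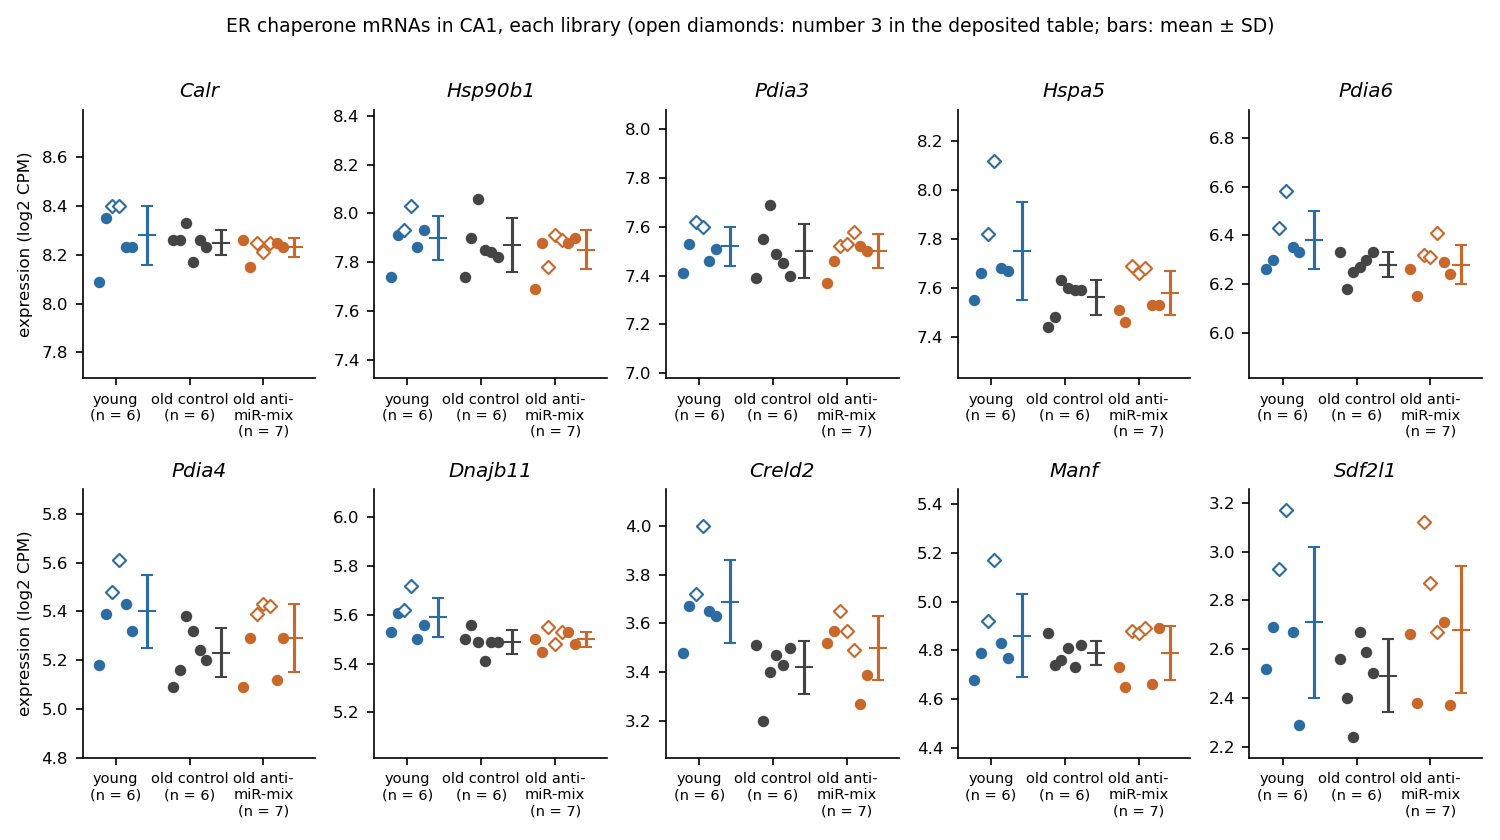
Expression (log2 CPM) of each ER chaperone gene by group and library. Each point is 1 library, open diamonds are libraries of number 3 in the deposited table, and bars give the mean ± SD of a group. All axes span the same log2 range, and the highest Hspa5 value, 8.12, belongs to young replicate 4.

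The difference with age was smaller where libraries of number 3 were left out. Without these 5 libraries 6 of 10 members were fitted lower in old control mice, the median log2 fold change was −0.04, 1 of 10 had an unadjusted p under 0.05 with a lower level, compared with 6.69% of all tested genes, and 0 were called. With the number as a factor in the model, 9 of 10 were lower, the median was −0.06 and 0 were called. At an unadjusted p under 0.05 there were then 4 of 10, compared with 16.8% of all tested genes in either direction and 8.07% lower. Without young replicate 4 alone, 10 of 10 were lower, the median was −0.07 and 3 of 10 had an unadjusted p under 0.05, compared with 7.03% of all tested genes lower at that threshold. Sdf2l1 had the widest shift, to a log2 fold change of −0.13 without young replicate 4 and −0.05 without the libraries of number 3. The values of Pdia4 were −0.13 and −0.10 and those of Pdia6 were −0.06 and −0.04. Creld2 had −0.21 and −0.19, and Dnajb11 −0.07 and −0.06. Within the numbers that both groups share, Creld2 was lower in old control mice by differences in mean log2 CPM of −0.13, −0.24 and −0.17 for numbers 1, 2 and 4, and Hspa5 by −0.09, −0.05 and −0.09. Over all members, old control means were below young means in 5, 8 and 8 of 10 genes for numbers 1, 2 and 4, with 1 to 2 libraries behind each mean.

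The factors that drive the chaperones were examined next. Xbp1, whose spliced product activates ER chaperone genes, was lower in old control than in young mice. Its levels ran from 6.07 to 6.50 with a median of 6.13 log2 CPM in young and from 5.89 to 6.00 with a median of 5.93 in old control libraries, so the groups did not overlap. The log2 fold change was −0.27 ± 0.06 (SE), with an edgeR adjusted p of 0.0126. The call held in all 29 alternative settings, with log2 fold changes between −0.29 and −0.17, and the value without the libraries of number 3 was −0.17 (edgeR adjusted p = 0.0264). The counts do not tell the spliced from the unspliced form.

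Of the 14 genes listed as sensors and transcription factors of the response, 0 were called higher and 1, Xbp1, was called lower. Of all tested genes, 2.67% were called. The list median was −0.057, and 5 of the 14 had an unadjusted p under 0.05 in either direction, compared with 18.1% of all tested genes. Eif2ak3, the PERK kinase, had a log2 fold change of −0.14 ± 0.04 (SE) and an edgeR adjusted p of 0.054. It was called in 3 of the 29 alternative settings. Atf6 (0.01), Ern1 (−0.04), Atf4 (−0.09) and Ddit3 (−0.08), the last 2 acting downstream of PERK, had edgeR adjusted p between 0.325 and 0.963. Among 13 targets of PERK and ATF4, 0 were called in this comparison and the median was −0.110. An unadjusted p under 0.05 in either direction was found for 6 of the 13, compared with 18.1% of all tested genes.

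The list median of 42 other ER chaperones and folding enzymes tested was −0.028. While 2.67% of all tested genes were called in this comparison, 2 of the 42 were called, both lower. These were Ero1lb, which reoxidises the disulphide isomerases (−0.18 ± 0.05 SE, edgeR adjusted p = 0.0455), and the prolyl isomerase Fkbp9 (−0.18 ± 0.04 SE, edgeR adjusted p = 0.0265). Ero1lb stayed called in 7 and Fkbp9 in 21 of the 29 alternative settings, and neither was called without the libraries of number 3, where the log2 fold changes were −0.16 for Ero1lb and −0.20 for Fkbp9 (edgeR adjusted p = 0.231 and 0.0709). Leaving out a single library ended the Fkbp9 call for young replicate 1 and old control replicates 2, 5 and 6, and the Ero1lb call for every single library but young replicate 2 and old anti-miR-mix replicates 1 and 4. Of 30 genes for translocation and signal peptide processing, 1 was called, the signal peptidase subunit Sec11c, which was higher (0.14 ± 0.03 SE, edgeR adjusted p = 0.0302, called in 20 of 29 alternatives). It was not called without the libraries of number 3 (log2 fold change 0.15, edgeR adjusted p = 0.0926) or without any single one of young replicates 1, 4 and 6 and old control replicates 3, 4 and 5 (without young replicate 4, log2 fold change 0.14 and edgeR adjusted p = 0.0571).

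Some markers of other cell types also differed between these groups. Of 5 oligodendrocyte markers 3 were called lower in old control mice, and their summed level ran from 5890 to 7120 CPM in old control and from 6790 to 10500 CPM in young libraries. Of 3 oligodendrocyte precursor markers 1 was called lower, and their summed level was 127 to 151 CPM in old control and 169 to 187 CPM in young libraries, with no overlap. The median log2 fold change of these 3 markers was 0.01, so the lower sum was not shared by all of them. Plasma cell markers, 1 of 4 of which was called higher, summed to 18.5 to 31.0 CPM in old control and 12.3 to 19.8 CPM in young libraries. Of 6 microglial markers 1 was called higher, and of 5 CA1 pyramidal markers 0 were called. The part of these cell types in the chaperone values was not tested.

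**Figure D3:**
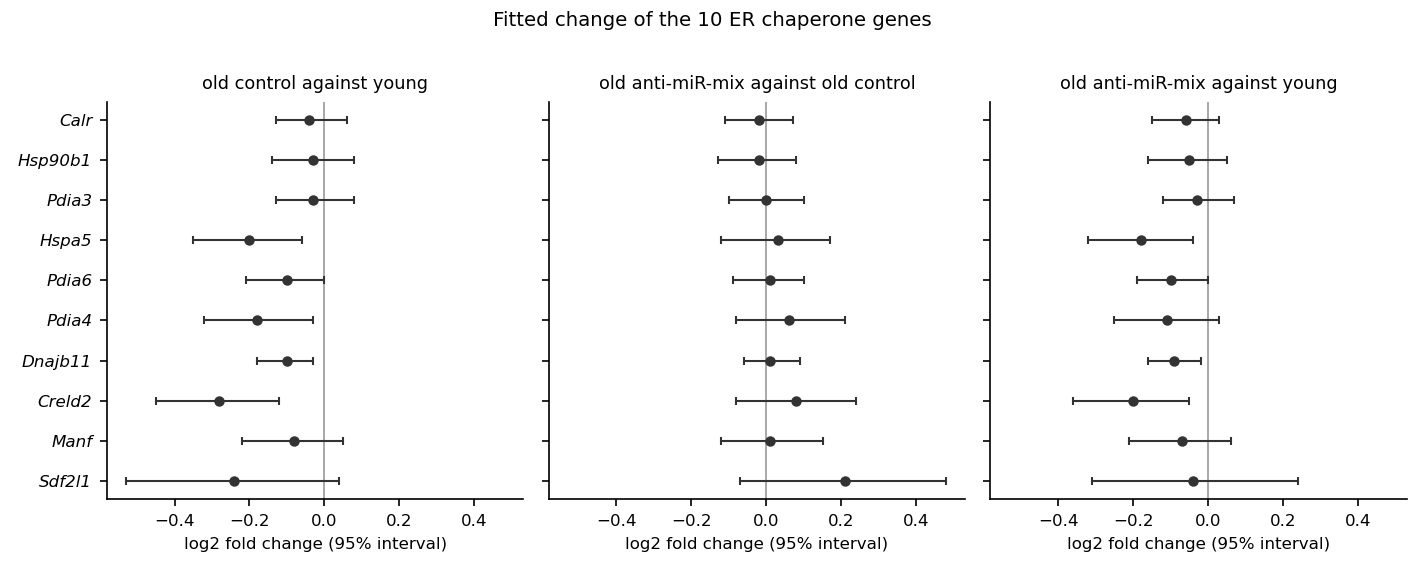
Fitted log2 fold change of each ER chaperone gene with its 95% interval (edgeR quasi-likelihood fit) in the 3 comparisons of groups. In this fit all 10 points lie left of 0 in both comparisons with young mice, while those of old anti-miR-mix against old control lie around 0, the farthest being Sdf2l1 at 0.21.

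The comparison of old anti-miR-mix with old control mice asked whether blocking the 3 microRNAs alters the chaperones. A microRNA binds messenger RNAs mainly through its seed, bases 2 to 8, and the inhibitors are complementary oligonucleotides. The mature microRNAs (RefSeq) are shown with the seed in capitals:
miR-146a-5p: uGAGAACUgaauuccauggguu
miR-148a-3p: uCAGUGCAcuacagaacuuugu
miR-181a-5p: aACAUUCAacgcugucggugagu

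The 3 seeds differ from each other, so each microRNA has its own set of matching sites. The inhibitors were a part of the reverse complement of each microRNA. For miR-146a-5p it was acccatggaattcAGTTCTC, 20 bases long, in which the capitals pair with the seed. For miR-148a-3p it was caaagttctgtagtgcact (19 bases) and for miR-181a-5p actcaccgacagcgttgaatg (21 bases), and both leave at least 1 base of the seed unpaired. The control oligonucleotide taacacgtctatacgccca held 0 matches to the 3 seeds.

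Sites that match a seed over 7 bases were searched in the longest annotated 3′ untranslated region of each member (GENCODE M21, GRCm38). Matches were found for miR-148a-3p in Hspa5, Hsp90b1, Pdia3 and Manf and for miR-181a-5p in Hsp90b1 and Pdia6, and none for miR-146a-5p in any of the 10. Over 21027 genes, a match for miR-148a-3p was held by 12.7%, a match for miR-181a-5p by 16.4% and a match for miR-146a-5p by 11.1%. The sites are shown with up to 14 bases before the match and 1 base after it, the match in capitals:
Hspa5, miR-148a-3p, chr2:34776114-34776122: gTGCACTGa
Hsp90b1, miR-148a-3p, chr10:86690989-86691010: gcctccttctccccTGCACTGt
Hsp90b1, miR-181a-5p, chr10:86690913-86690934: tttaacattcctccTGAATGTa
Pdia3, miR-148a-3p, chr2:121437805-121437826: aactgtttcttagcTGCACTGt
Pdia6, miR-181a-5p, chr12:17284249-17284270: tcctgactgctgctTGAATGTt
Manf, miR-148a-3p, chr9:106888257-106888278: ctgagggagttgtgTGCACTGt

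The Hspa5 match begins at base 2 of its untranslated region, directly behind the stop codon. Calr, Pdia4, Sdf2l1, Creld2 and Dnajb11 held no match for any of the 3. A list of predicted targets given with the study names Hspa5 for miR-181a-5p, Hsp90b1 for miR-148a-3p and miR-181a-5p, and Calr and Pdia3 for miR-148a-3p.

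With the inhibitors, 0 of the 10 chaperone genes were called, 0 had an unadjusted p under 0.05 and the smallest edgeR adjusted p was 0.625. DESeq2 and limma called 0 of the 10 as well. Over all tested genes 0.669% (129 genes) were called, while at an unadjusted p under 0.05 there were 2026 genes. The fitted change was below 0 for 3 of the 10 genes, compared with 49.8% of all tested genes, and the median was 0.01. In 0 of the 10 genes did the groups not overlap, compared with 0.498% of all tested genes.

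For the members with a seed match the intervals were narrow. Hsp90b1, with a match for both microRNAs, had 7.69, 7.88, 7.78, 7.91, 7.89, 7.88 and 7.90 log2 CPM in old anti-miR-mix replicates 1 to 7, and 7.74, 7.90, 8.06, 7.85, 7.84 and 7.82 in old control replicates 1 to 6. The old anti-miR-mix libraries lay inside or just below the old control range. The log2 fold change was −0.02 ± 0.05 (SE, 95% interval −0.13 to 0.08). Pdia3 (95% interval −0.10 to 0.10), Hspa5 (−0.12 to 0.17), Pdia6 (−0.09 to 0.10) and Manf (−0.12 to 0.15) each had intervals around 0, and so did Calr (−0.11 to 0.07), which is a predicted target without such a match.

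Sdf2l1 had the largest fitted difference. Its levels in the old anti-miR-mix libraries were 2.66, 2.38, 3.12, 2.87, 2.67, 2.71 and 2.37 log2 CPM, and 3 of the 7 lay above all old control libraries, which ran from 2.24 to 2.67. The log2 fold change was 0.21 ± 0.13 (SE, 95% interval −0.07 to 0.48, edgeR adjusted p = 0.625). Creld2 differed by 0.08 ± 0.08 (SE) and Pdia4 by 0.06 ± 0.07. Without the libraries of number 3, Sdf2l1 differed by 0.03, and 8 of the 10 members were fitted lower with the inhibitors, with a median of −0.04 and 0 called.

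In this comparison 0 genes were called among the sensors and transcription factors, the PERK and ATF4 targets, the other ER chaperones, the genes of ER-associated degradation, the translocation genes and the cytosolic heat shock chaperones. The list medians lay between −0.030 and 0.062, beside 0.0004 over all tested genes. Xbp1 differed by 0.08 ± 0.05 (SE, edgeR adjusted p = 0.631). Microglial markers moved in the same samples. Of 6 markers of activated microglia 5 were called higher in old anti-miR-mix mice, and their summed level ran from 80.2 to 155 CPM compared with 63.0 to 81.1 CPM in old control mice. Without the libraries of number 3, 0 of all tested genes were called between the old groups by edgeR, these markers included. With the number as a factor, 9 genes were called. The part of microglia in the chaperone values was not tested.

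The comparison of old anti-miR-mix with young mice uses the same young libraries as the comparison by age. Again 0 of the 10 genes were called, by edgeR as by DESeq2 and limma, and 10 of 10 were fitted lower than in young mice, compared with 6.2% of all tested genes called and 49% fitted lower. At an unadjusted p under 0.05, 3 of the 10 were lower (Hspa5, Creld2 and Dnajb11), compared with 8.31% of all tested genes. In 0 of the 10 did the groups not overlap, compared with 2.42% of all tested genes. The fitted level was 13.2% lower for Creld2, 11.6% lower for Hspa5 and 5.92% lower for Dnajb11, with edgeR adjusted p of 0.123, 0.137 and 0.146. The median log2 fold change was −0.08, and Pdia4 (−0.11), Pdia6 (−0.10), Manf (−0.07), Calr (−0.06), Hsp90b1 (−0.05), Sdf2l1 (−0.04) and Pdia3 (−0.03) filled the range.

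These values rested in part on young replicate 4. Without it the median was −0.04, 9 of 10 members were fitted lower and 0 had an unadjusted p under 0.05, compared with 7.37% of all tested genes lower at that threshold. With the number of the deposited table as a factor, Hspa5 (−0.20, edgeR adjusted p = 0.0105) and Pdia4 (−0.15, edgeR adjusted p = 0.0119) were called. Without the libraries of number 3, 10 of 10 were fitted lower, the median was −0.06 and 0 were called. Xbp1 was called lower (−0.18 ± 0.05 SE, edgeR adjusted p = 0.0418), at 5.93 to 6.12 log2 CPM in the old anti-miR-mix libraries, a range that overlaps the young one. That call held in 13 of 29 alternative settings and was lost without any single one of young replicates 3 and 4, old control replicates 5 and 6 and old anti-miR-mix replicates 1, 2, 3, 5, 6 and 7, with log2 fold changes between −0.21 and −0.11 in all settings. Of 6 markers of activated microglia 5 were called higher in this comparison, as were 5 of 6 microglial, 2 of 5 astrocyte and 2 of 4 plasma cell markers. Of the CA1 pyramidal markers 1 of 5 was called lower, and of the oligodendrocyte precursor markers 1 of 3. The median log2 fold changes of these 2 lists were −0.02 and 0.05. The part of these cell types in the chaperone values was not tested.

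Whether the members vary together from mouse to mouse was examined after the mean of each group had been subtracted, over 19 libraries and 45 pairs of genes. Pearson's r was above 0 in 44 of 45 pairs and its median was 0.57. A permutation test within groups (100000 permutations, adjusted over the 45 pairs by the Benjamini-Hochberg method) passed 20 pairs by Pearson's r, 16 by Spearman's rho and 15 by both. The members are measured in the same libraries and share depth and scaling, so the pairs are not independent of each other. The median r was 0.38 when the 2 libraries farthest from the median were left out of each pair, 0.40 without young replicate 4, and 0.34 with the number of the deposited table removed as well, where 37 of the 45 pairs were above 0.

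The closest pair was Hsp90b1 and Pdia3, with r = 0.88 and rho = 0.81 (adjusted permutation p = 0.00112 and 0.00247), r = 0.83 without the 2 farthest libraries and r = 0.84 with the number removed. Old control replicate 3 was the highest library for both of these genes. Hspa5 followed Pdia4 (r = 0.81, rho = 0.85, adjusted permutation p = 0.00112 and 0.00045, r = 0.82 without the 2 farthest), Pdia6 (r = 0.83, rho = 0.72, adjusted permutation p = 0.00506 and 0.0147, r = 0.69) and Manf (r = 0.82, rho = 0.73, adjusted permutation p = 0.0099 and 0.0147, r = 0.58). With the number removed these values were 0.44, 0.67 and 0.62. Calr and Dnajb11 formed a further pair with r = 0.75 and rho = 0.80 (adjusted permutation p = 0.0175 and 0.013), r = 0.74 without the 2 farthest libraries and 0.74 with the number removed.

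Hspa5 was the member most like the others, with r = 0.94 against the mean of the other 9, and Hsp90b1 was least like them with r = 0.51. The pairs at the lower end joined Hsp90b1 or Pdia3 with Sdf2l1 or Creld2. For Pdia3 and Creld2 r was 0.06, and −0.64 with the number removed. For Hsp90b1 and Sdf2l1 r was −0.05, and −0.45 with the number removed.

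**Figure D4:**
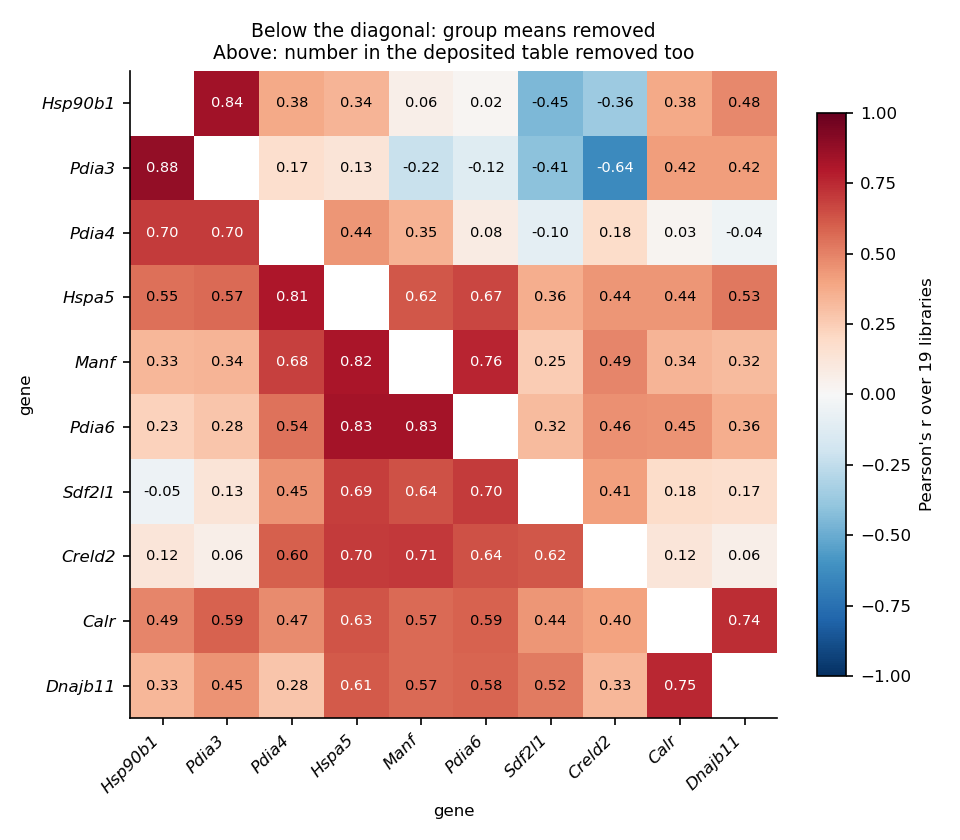
Pearson's r between each pair of ER chaperone genes over 19 libraries, below the diagonal with group means removed and above it with the number of the deposited table removed too. Hsp90b1 with Pdia3 (0.88 and 0.84) and Calr with Dnajb11 (0.75 and 0.74) are dark on both sides, while pairs of Sdf2l1 or Creld2 with Hsp90b1 or Pdia3 turn below 0 above the diagonal.

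The members were also described by the number that each library carries. As a common measure, each member was centred on its group mean and scaled to its SD, and the 10 values were averaged per library. All 5 libraries of number 3 lay above the mean of their own group, at 0.74 and 2.12 in young replicates 3 and 4 and 0.68, 0.47 and 0.68 in old anti-miR-mix replicates 3 to 5. All 4 libraries of number 1 lay below it, the lowest being young replicate 1 at −1.62. In old control mice, which have no library of number 3, values ran only from −0.23 to 0.56. What the numbers stand for is not described, and their part in the shared variation was not tested beyond the values with the number removed.

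**Figure D5:**
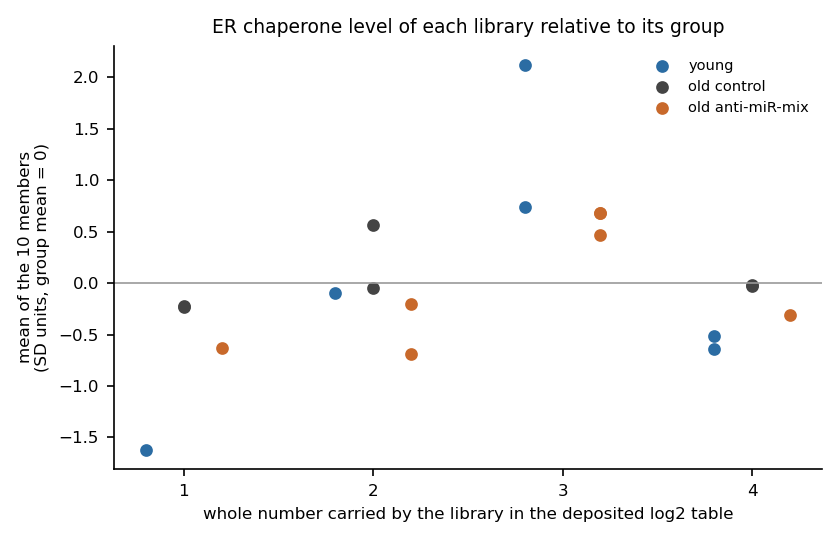
Mean of the 10 ER chaperone genes in each library (each gene centred on its group mean and scaled to its SD) against the whole number that the library carries in the deposited log2 table. Libraries of number 3 all lie above 0 (highest 2.12, young replicate 4) and libraries of number 1 all lie below 0 (lowest −1.62, young replicate 1).

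Among 11829 other genes with a mean of at least 5 CPM, the 8 most like this common measure were P4ha1 (r = 0.89), Vps37b (0.84), Banp (0.83), Mfap3 (0.81), Zhx2 (0.80), Homer1 (0.79), Eri1 (0.79) and Hsph1 (0.79), over 19 libraries with group means removed. P4ha1 encodes an ER enzyme that hydroxylates collagen, Homer1 a postsynaptic scaffold and Hsph1 a cytosolic heat shock chaperone. Across all genes compared the median r was 0.03 and the upper 5% began at 0.50. With the number removed as well, P4ha1 (0.79), Vps37b (0.81), Homer1 (0.81) and Hsph1 (0.75) stayed near their values, Banp (0.70) and Zhx2 (0.59) were lower, and Mfap3 (0.45) and Eri1 (0.41) were lowest. Their places in the order were then 9, 7, 8, 28, 76, 335, 1187 and 1518. Places 1 to 3 were then held by Emx2 (0.85), Dio2 (0.83) and Dnajb1 (0.83). Without young replicate 4, r was 0.78 for P4ha1, 0.73 for Banp and 0.66 for Vps37b and Eri1. It was 0.64 for Mfap3, 0.63 for Zhx2, 0.61 for Hsph1 and 0.57 for Homer1. The lists of ER and unfolded protein response genes and of cytosolic heat shock chaperones held 133 of the genes compared. Of these, 7 (5.26%) were within the first 100, which hold 0.845% of all genes compared. This count is for the order with group means removed, and is not given with the number removed or without young replicate 4. The cytosolic chaperones Hsph1, Dnajb1 (0.76), Dnajb5 (0.70) and Hspa8 (0.69) made up 4 of the 7, and the other 3 were Xbp1 (0.75), the NF-Y subunit Nfya (0.73) and Dnajc3, an ER co-chaperone (0.72). These likenesses describe 19 libraries that share depth and scaling, and no p is given for them.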

How the data were processed

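CA1 tissue of 19 mice was sequenced as single-end reads of polyadenylated RNA. Per the submitters' processing notes and the study's methods, the authors aligned reads to mm10 with STAR 2.5.2b and counted them per Ensembl gene with featureCounts (Subread 1.5.1), and strand and multi-mapping options are not given in the sources used here. The deposited files hold raw counts for each library, and a deposited table of log2 values, made by the authors, for 18761 genes. The log2 values equalled log2(CPM + 1) minus a slope per gene multiplied by a whole number from 1 to 4 per library (largest residual 3.4e-08). By the labels each library is 1 sample, and nothing in them ties samples of different groups, so p values measure the spread between libraries.

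Testing was limited to genes that reached 5 reads in 50% or more of the libraries (19286 of 48709) with edgeR 4.0.16 (R 4.3.3) on the counts, with TMM scaling, a quasi-likelihood fit of all 3 groups without covariates and an adjusted p threshold of 0.05. The study used DESeq2, which was run here as an alternative (1.42.0), as was limma 3.58.1 on the deposited log2 table. Log2 CPM was computed with a prior count of 2. Correlations were tested in Python 3.11.15. The fits were run on simulated data in which the changed genes had larger changes than those fitted for any member. These runs do not show how often a change of a member's size would be called. Members and gene lists were chosen with earlier results of these data known. Named genes were the members, 6 central factors of the unfolded protein response, up to 3 called genes per list and comparison, and the 8 genes most like the members. Dnajb1, Nfya, Dnajc3, Emx2 and Dio2, and the genes named in the closing section beyond this rule, were chosen after their values were seen. Intervals of fold changes are 95% intervals of the fit. Symbols, exons and untranslated regions came from GENCODE M21, whose release may differ from the one the authors used.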

Additional observations from a re-analysis of the deposited data

Results flagged for a closer look

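In 1 of the 30 combinations of a member and a group, a library stood apart from the rest of its group by Dixon's criterion. Creld2 in old control replicate 2 had 3.20 log2 CPM, and the nearest of the other 5 old control libraries had 3.40, a gap of 0.636 of the whole range. About 1 in 20 groups would be marked in this way by chance.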

How the results depend on the processing

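Under the 29 alternatives, 826 of the 870 member values kept their direction and their side of the threshold, 6 became called and 38 changed sign, none of which was called in either setting. DESeq2 called 1 member between old control and young mice (Creld2), and the fit with a replicate block also called 1 (Pdia4, edgeR adjusted p = 0.025). Leaving out each library gave 0 to 1 there. With the number of the deposited table as a factor 2 members were called between old anti-miR-mix and young mice. All other counts of called members were 0. Replicate numbers are not stated to mark shared animals or days. With group means removed, libraries of different groups with the same replicate number correlated at 0.0542 on average over 18 pairs (−0.17 to 0.214). Those with different replicate numbers correlated at −0.00955 over 102 pairs. The replicate block is therefore no paired design. It changed no other call of a member.

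Changes of sign by age were 0.005 for Hsp90b1, 0.02 for Calr, 0.01 for Pdia3 and 0.01 for Manf without the libraries of number 3, 0.01 for Pdia3 with the number as a factor, and for Atf6 −0.002 with it as a linear term, −0.01 with limma and −0.02 to 0.02 leaving out 1 library. Between the old groups the number as a factor gave −0.09 for Hspa5 and Manf, −0.06 for Pdia4, −0.05 for Pdia6, −0.02 for Creld2 and Dnajb11, −0.001 for Ern1 and −0.01 for Atf4. Leaving out number 3 gave −0.05 for Hspa5, −0.04 for Pdia4 and Pdia6, −0.06 for Manf, −0.01 for Dnajb11 and −0.01 for Ern1. Pdia3 was at 0.02 with limma on the deposited table, and the replicate block gave 3e-05 for Pdia3, −0.01 for Manf and −0.004 for Atf4. Leaving out 1 library gave −0.05 to 0.02 for Hsp90b1, −0.02 to 0.04 for Pdia3, −0.02 to 0.03 for Pdia6, −0.01 to 0.03 for Manf, −0.002 to 0.03 for Dnajb11, −0.004 to 0.06 for Ern1, −0.05 to 9e-05 for Atf6 and −0.001 to 0.04 for Atf4. Between old anti-miR-mix and young mice the block gave 0.02 for Sdf2l1 and 0.001 for Atf6, Ddit3 was at 0.03 without number 3, and leaving out 1 library gave −0.12 to 0.07 for Sdf2l1, −0.04 to 0.02 for Ern1 and −0.05 to 0.02 for Ddit3. The cause was not tested for any of these.

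The median r over pairs of members was 0.57, and 0.34 with the number removed too. Counts of all called genes moved by over 1.5 times with DESeq2 (897 by age and 264 between the old groups, compared with 514 and 129 by edgeR), without a filter on low counts (323 by age), with the number as a factor (9 between the old groups), with replicates 5 and 6 of the old controls as 1 library (313 and 33), with only the 2 groups compared (48 between the old groups), with the replicate block (249 between the old groups) and without the libraries of number 3 (134 by age, 347 between old anti-miR-mix and young mice, and 0 between the old groups by edgeR, where 1589 had an unadjusted p under 0.05 and DESeq2 was not run). Leaving out 1 library gave 214 to 746 by age and 24 to 247 between the old groups. Depth limits Sdf2l1 most, with 124 to 345 reads per library. Where number 3 is concerned, no old control library allows a comparison within the number.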

Other observations

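Further genes around the ER and in the cytosol were described by their lists. Among 22 tested genes of ER-associated degradation, which removes misfolded protein from the ER, 0 were called between old control and young mice (median −0.009). Of the 22, 3 had an unadjusted p under 0.05, compared with 18.1% of all tested genes. Herpud1 (−0.18 ± 0.05 SE, edgeR adjusted p = 0.0761) and Derl3 (−0.43 ± 0.15 SE, edgeR adjusted p = 0.133) lay below 0 and Erlec1 (0.11 ± 0.05 SE, edgeR adjusted p = 0.277) above it. Between old anti-miR-mix and young mice 1 of the 22 was called, compared with 6.2% of all tested genes. This was Edem2, which trims glycans of misfolded proteins and was higher (0.16 ± 0.05 SE, edgeR adjusted p = 0.0484). The call held in 7 of 29 alternative settings. Edem2 was not called without the libraries of number 3, and its log2 fold changes ran from 0.13 to 0.19 over all settings. Sec11c was higher in this comparison too (0.15 ± 0.03 SE, edgeR adjusted p = 0.00713, called in 28 of 29 alternatives). Without the libraries of number 3 it had a log2 fold change of 0.17 and an edgeR adjusted p of 0.0587.

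Of 25 cytosolic heat shock chaperones, 0 were called between old control and young mice, compared with 2.67% of all tested genes. Between old anti-miR-mix and young mice 2 of the 25 were called, both lower, compared with 6.2% of all tested genes called. The list median there was −0.082. At an unadjusted p under 0.05 there were 12 of the 25, 10 of them lower and 2 higher (Hspb8 and Bag3), compared with 19.6% of all tested genes in both directions and 8.31% lower. The called genes were Hspa4 (−0.11 ± 0.03 SE, edgeR adjusted p = 0.033) and Hsp90aa1 (−0.11 ± 0.03 SE, edgeR adjusted p = 0.0386), and each call held in 17 of 29 alternatives. Neither gene was called without the libraries of number 3. Over all settings the log2 fold changes ran from −0.12 to −0.1 for Hspa4 and from −0.15 to −0.1 for Hsp90aa1. Hspb8 (0.24) and Bag3 (0.19), which work together, had edgeR adjusted p of 0.115 and 0.218. In the same comparison Ero1lb (−0.18, edgeR adjusted p = 0.023) and the glycoprotein folding sensor Uggt1 (−0.13, edgeR adjusted p = 0.0273) were lower, as was Asns (−0.14, edgeR adjusted p = 0.0269), and the stress factor Atf3 was higher (1.20 ± 0.33 SE, edgeR adjusted p = 0.0338) at −1.01 to 1.26 log2 CPM in young and 0.13 to 2.59 in old anti-miR-mix libraries. Of these, Uggt1, Asns and Atf3 were each called in 20 of 29 alternatives and Ero1lb in 27, and none was called without the libraries of number 3. The log2 fold changes there were −0.15 for Uggt1, −0.14 for Asns, 1.13 for Atf3 and −0.20 for Ero1lb, of about the same size, with edgeR adjusted p between 0.078 and 0.192.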
